A study of Homo sapiens with 8 samples.

Results

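The DNA replication licensing genes considered here are MCM2, MCM3, MCM4, MCM5, MCM6, MCM7, MCM10, CDC6, CDT1 and PCNA, taken by gene symbol from a deposited table of 16525 genes. All 10 of the 10 were listed, and their RNA was compared between untreated and cytokine-exposed EndoC-βH5 cells. These cells are an established line of human beta cells. The line derives from fetal pancreas that was immortalised with transgenes for SV40 large T-antigen and telomerase, which were later removed, so every library comes from the same line after that removal. The control group held 4 libraries of cells cultured for 48 h without cytokines, and the cytokine group held 4 libraries of cells cultured for 48 h with IL-1β, IFNγ and TNFα together. The question addressed here is how the licensing genes stood after this exposure.

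Licensing is the step that prepares chromosomes for replication. Before S phase the origin recognition complex, CDC6 and CDT1 load the ring-shaped MCM helicase, built of MCM2 to MCM7, onto origins. MCM10 then takes part in switching the helicase on, and PCNA is the sliding clamp that holds DNA polymerases on the template. These genes are classical targets of the E2F transcription factors, are transcribed when cells enter the cycle and fall silent in resting cells, and mature beta cells seldom divide.

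Since the genes share E2F control in textbook accounts, the sequence around their transcription starts was searched for 4 spellings of the E2F site (TTTCCCGC, TTTCGCGC, TTTGCCGC and TTTGGCGC, both strands, overlaps allowed). RefSeq promoter windows on GRCh38.p14, from 250 bases before to 50 bases after the start, existed for 8 of the 10 genes (the other two are MCM4 and MCM5). A match lay in a window of 7 of these 8, against 3.99% of the 27305 genes in the same table, and the gene without a match was MCM10. The box CCAAT, on either strand, lay in a window of 6 of the 8 genes (the other two are MCM2 and CDT1) and of 39.7% of all genes. The stretches below run from 200 bases before the start to 20 bases after it, with E2F matches in capitals. They show a ring gene that was not called (MCM2), the gene with the most matches (MCM6), a called gene of the ring (MCM7), a called loader (CDT1) and the gene without a match (MCM10).
MCM2 (chr3:127598211-127598430, plus strand): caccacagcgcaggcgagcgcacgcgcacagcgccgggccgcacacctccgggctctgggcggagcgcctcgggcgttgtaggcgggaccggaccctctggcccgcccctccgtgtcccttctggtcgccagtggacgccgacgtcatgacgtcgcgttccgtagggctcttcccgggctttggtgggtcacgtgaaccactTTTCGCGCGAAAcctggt
MCM6 (chr2:135876424-135876643, minus strand): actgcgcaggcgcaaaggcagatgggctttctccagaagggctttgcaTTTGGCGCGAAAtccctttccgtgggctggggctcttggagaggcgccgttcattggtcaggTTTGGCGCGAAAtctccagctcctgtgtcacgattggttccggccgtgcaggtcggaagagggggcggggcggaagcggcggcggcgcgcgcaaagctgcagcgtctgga
MCM7 (chr7:100101378-100101597, minus strand, the first of 3 windows): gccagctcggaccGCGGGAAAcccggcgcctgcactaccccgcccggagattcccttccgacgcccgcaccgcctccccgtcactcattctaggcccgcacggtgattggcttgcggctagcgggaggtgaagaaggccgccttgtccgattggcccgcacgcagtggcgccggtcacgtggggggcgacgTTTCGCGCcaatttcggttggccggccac
CDT1 (chr16:88803589-88803808, plus strand): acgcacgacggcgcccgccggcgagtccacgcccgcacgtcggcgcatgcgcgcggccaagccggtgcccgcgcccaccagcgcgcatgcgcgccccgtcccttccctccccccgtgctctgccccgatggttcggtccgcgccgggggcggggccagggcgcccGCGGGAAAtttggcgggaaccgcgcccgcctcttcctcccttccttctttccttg
MCM10 (chr10:13161358-13161577, plus strand): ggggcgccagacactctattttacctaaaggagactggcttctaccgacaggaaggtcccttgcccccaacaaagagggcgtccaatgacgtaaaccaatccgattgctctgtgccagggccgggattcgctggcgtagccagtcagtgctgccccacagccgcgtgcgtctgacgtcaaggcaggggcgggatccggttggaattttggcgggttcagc
MCM6 held 4 matches, which formed 2 overlapping pairs on opposite strands from -152 to -141 and from -90 to -79 relative to the start, where +1 is the first transcribed base. MCM2 held 1 such pair, from 3 to 14. MCM7 matched at -187 to -180 and at -9 to -2, and CDT1 matched at -35 to -28. Of the genes not shown, MCM3 matched at -174 to -167 and at -4 to 4, PCNA at -59 to -52 in the first of 2 windows, and CDC6 at 8 to 15. Only the exact spellings were counted, so near spellings such as TTTGGCGG, which the MCM10 and CDT1 stretches hold, are not marked. A match is only a run of letters, and no binding was measured in these libraries.

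The values are CPM, the reads on a gene scaled by the total reads of its library. Reads on the listed genes numbered 36956294 to 40117636 in control libraries and 36577438 to 39348935 in cytokine libraries. The totals by which the reads had been divided were larger, at 46767972 to 51145634 and 46821778 to 49770531, so 1 read equalled 0.0196 to 0.0214 CPM. The least expressed licensing gene, MCM10, rested on 74 to 390 reads a library, and the others on 163 to 4974. Control and cytokine columns that share the first part of their name are called pairs A, B, C and D here, and a shared ending sets the names of A and B apart from those of C and D. Library D stood apart in each condition, with 26.6% (control) and 26.5% (cytokine) of its reads outside the listed genes, against 20.1% to 21.01% in the other libraries. The labels do not say whether libraries are separate cultures or thaws, so p-values measure the spread between these libraries, which may be technical.

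Transcript levels were also set per unit of exon length (TPM, over GENCODE 29). The length of a gene was all bases in any of its annotated exons, 7338 for MCM5, 6973 for MCM4 and 3650 for MCM3. These can exceed the lengths of the transcripts present, so the order of genes below depends on this choice of length. On this scale PCNA was the most abundant licensing transcript in control cells, at 179 ± 85.6 TPM (SD, n = 4), and its range did not overlap with that of the next gene. MCM7 at 72.9, MCM3 at 67.8, MCM2 at 51.6, MCM6 at 44.4, MCM4 at 31.3, MCM5 at 26.2 and CDT1 at 25.2 TPM followed, and each of these neighbours overlapped the next in range. CDC6 at 7.14 and MCM10 at 3.51 TPM were lowest, and CDC6 lay below the range of CDT1. Within libraries the order was firmer: MCM3 exceeded MCM2, MCM2 exceeded MCM6 and MCM6 exceeded MCM4 in 4 of 4 control libraries. In cytokine-exposed cells MCM2 stood above MCM3 in 4 of 4 libraries, at means of 50.9 and 41.6 TPM. MCM5 stood above CDT1 in 3 of 4 control libraries and below it in 3 of 4 cytokine libraries, at cytokine means of 11.8 and 13.98 TPM.

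Cytokine exposure went with lower RNA of most licensing genes. In the limma test over all genes, 8 of the 10 were called lower, which asks for an FDR under 0.05 and a log2 fold change beyond 0.5 in size, where 17.5% of all genes tested were called lower. None was called higher, where 9.52% of all genes were, and none had a positive estimate at an unadjusted p under 0.05 with limma or was called higher with edgeR or DESeq2. The 8 called genes stood 31.2% to 58.5% below the control mean. The 2 genes not called were MCM2 and PCNA. The median log2 fold change of the 10 genes was -0.90, beside -0.17 over all genes, and in 4 of them (MCM5, MCM6, MCM7 and CDT1) the cytokine libraries all lay below the control libraries, which held for 21.9% of all genes. With TMM scaling limma called 6 of the 10 lower and 0 higher, where 11.7% and 13% of all genes were called, and edgeR with TMM also called 6 lower and 0 higher, against 11.6% and 13%. The count of 8 became 3 without control library C (15.6% of all genes called lower), 3 without control library D (14.5%), 3 without cytokine library B (15.2%), 4 without cytokine library A (15%) and 4 without both libraries D (12.2%), and MCM5, MCM6 and CDT1 were called with any single library left out. In bulk RNA, fewer cells that express a gene and less of its RNA per cell cannot be told apart.

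**Figure D1:**
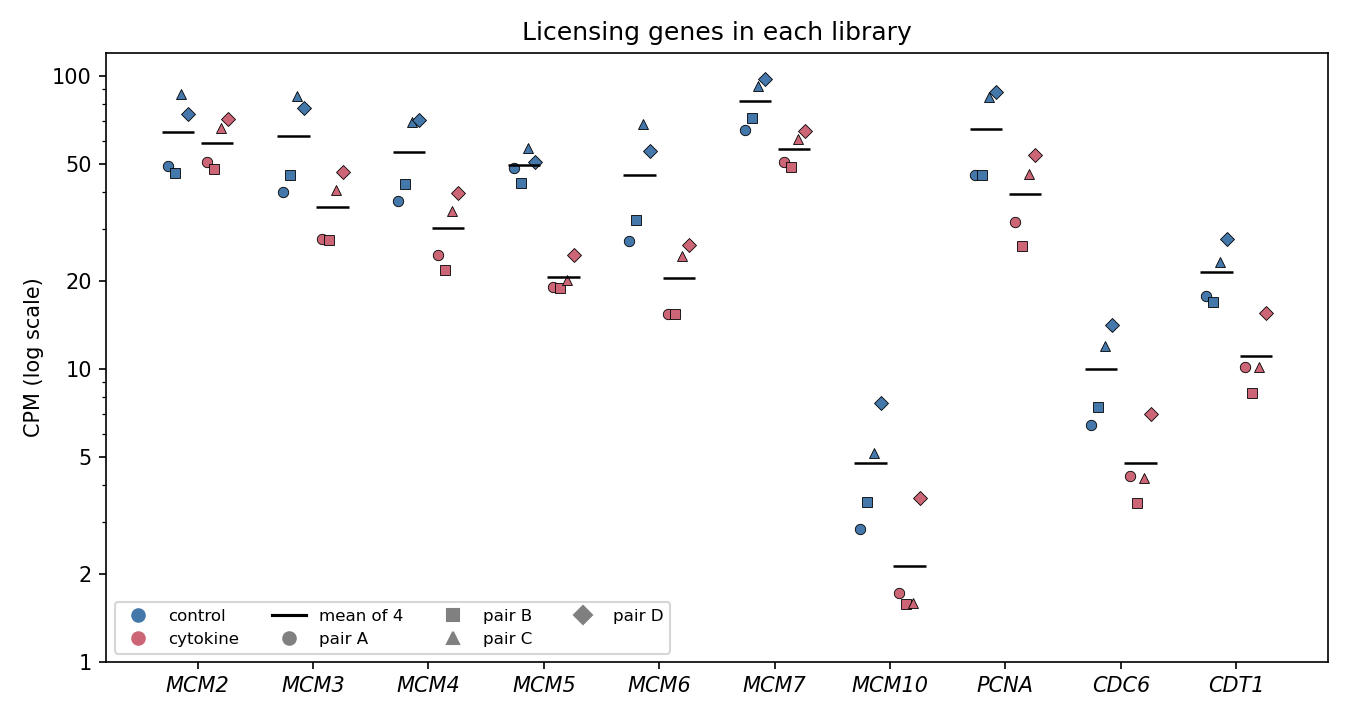
CPM of each licensing gene (log scale) in the 4 control libraries (blue) and the 4 cytokine libraries (red), with symbols for pairs A to D and a line at the mean of 4. The colours are separate for MCM5, MCM6, MCM7 and CDT1, overlap for the other genes, and nearly coincide for MCM2.

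Within the helicase ring the fall was largest in MCM5, a gene at chr22:35400063-35425430 on the plus strand (GENCODE 29, GRCh38), whose product forms, with that of MCM2, the gate through which the ring opens around DNA. MCM5 was at 48.3, 43.2, 56.6 and 50.6 CPM in control libraries A to D and at 19.1, 18.9, 20.1 and 24.5 CPM in cytokine libraries A to D. Every cytokine library lay well below every control library, and the controls lay close together. The means were 49.7 ± 5.57 and 20.6 ± 2.61 CPM (SD, n = 4 each), which gave a log2 fold change of -1.26 (SE 0.13; limma, adjusted p = 4.84e-05). An exact 2-sided permutation test of 4 against 4 libraries gave p = 0.0286, the smallest it can give.

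MCM6, another subunit of the ring (chr2:135839626-135876426, minus strand), was at 27.2, 32.1, 68.5 and 55.3 CPM in control libraries A to D. With cytokines it was at 15.4, 15.4, 24.2 and 26.5 CPM. Controls C and D were far above controls A and B, and the highest cytokine library, D, still lay just below the lowest control library, A. The log2 fold change was -1.11 (SE 0.30; limma, adjusted p = 0.0167).

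MCM4 (chr8:47960185-47978160, plus strand), which belongs to the catalytic core of the ring, fell from 55.0 ± 17.5 to 30.2 ± 8.47 CPM (SD, n = 4 each). Its control libraries A to D stood at 37.2, 42.6, 69.5 and 70.6 CPM and its cytokine libraries at 24.5, 21.8, 34.6 and 39.8 CPM, so cytokine library D overlapped with control library A. The log2 fold change was -0.85 (SE 0.25; limma, adjusted p = 0.0261).

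MCM3 (chr6:52264009-52284881, minus strand), which adjoins MCM5 in the ring, was at 40.2, 45.9, 85.0 and 77.7 CPM in control libraries A to D and at 27.6, 27.4, 40.7 and 46.9 CPM with cytokines. Cytokine libraries C and D reached the level of controls A and B, although each cytokine library lay below its own control. The log2 fold change of -0.77 ± 0.27 (SE) passed the test narrowly (adjusted p = 0.0494, limma) and did not pass after TMM scaling, with -0.61 and an adjusted p of 0.0679. With the pair as a replicate block MCM3 was called, at an adjusted p of 2.58e-06 (limma). It was also called with the block under TMM scaling (-0.61, adjusted p = 6.14e-06, limma).

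MCM7 (chr7:100092728-100101940, minus strand), also of the catalytic core, had the smallest change among the called genes. It was at 65.4, 71.8, 92.3 and 97.3 CPM in control libraries A to D and at 50.7, 48.8, 60.9 and 64.6 CPM in cytokine libraries A to D. The highest cytokine library lay just under the lowest control, and the log2 fold change was -0.53 (SE 0.16; limma, adjusted p = 0.0263). With TMM scaling it was -0.38, under the fold threshold. On the opposite strand, exons of AP4M1 cover 392 of the 4386 exon bases of MCM7.

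MCM2 (chr3:127598223-127622436, plus strand), a subunit of the ring's gate that also binds histones, was the ring gene that was not called. Its control libraries A to D were at 49.4, 46.4, 86.5 and 74.0 CPM and its cytokine libraries at 50.7, 48.1, 66.3 and 71.1 CPM. The groups overlapped almost wholly. Within pairs, MCM2 was slightly higher with cytokines in A and B and lower in C and D. Without the pair in the fit, limma put the log2 fold change at -0.09 (SE 0.22, adjusted p = 0.796). The 95% interval of that fit, from -0.56 to 0.39, still holds a fall of the size of the threshold, but it includes the spread between pairs. Within pairs A to D the changes were 0.04, 0.05, -0.38 and -0.06, and none reached the threshold. With the pair as a replicate block the estimate stayed at -0.09 and MCM2 was not called (adjusted p = 0.355, limma). Under TMM scaling the estimate turned to 0.07. Exons of genes on the opposite strand cover part of MCM2, 1113 of its 4902 exon bases by AC023593.1 and 45 by TPRA1. The library kit keeps strand, and the strand setting of the counting was not checked here.

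Of the loaders, CDC6 and CDT1 both fell. CDC6 (chr17:40287633-40304657, plus strand), the ATPase that joins the origin recognition complex, was at 6.41, 7.39, 11.9 and 14.1 CPM in control libraries A to D and at 4.30, 3.48, 4.25 and 7.03 CPM with cytokines. Cytokine library D lay between the 2 lowest controls, and the log2 fold change was -1.02 (SE 0.29; limma, adjusted p = 0.0203). CDT1 (chr16:88803213-88809258, plus strand), which brings the helicase to the origin, was at 17.7, 16.8, 23.2 and 27.7 CPM in control libraries A to D. With cytokines it stood at 10.2, 8.24, 10.1 and 15.6 CPM, all below the controls, and the log2 fold change was -0.96 (SE 0.22; limma, adjusted p = 0.00747).

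MCM10 (chr10:13161554-13211104, plus strand), the activator of the loaded helicase, was the rarest of the 10 transcripts. It was at 2.84, 3.51, 5.18 and 7.63 CPM in control libraries A to D and at 1.72, 1.58, 1.59 and 3.62 CPM with cytokines. Cytokine libraries A to C were close together, and library D was above the 2 lowest controls. The log2 fold change was -1.12 (SE 0.35; limma, adjusted p = 0.0309).

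PCNA (chr20:5114953-5126626, minus strand), the sliding clamp, was at 45.7, 45.8, 84.3 and 88.2 CPM in control libraries A to D and at 31.7, 26.1, 46.3 and 53.5 CPM in cytokine libraries A to D. Cytokine libraries C and D were as high as controls A and B. The log2 fold change of -0.73 ± 0.28 (SE) did not pass the test (adjusted p = 0.0720, limma), although it was larger than that of MCM7. PCNA was lower with cytokines in each of the 4 pairs, and with the pair as a replicate block it was called, at an adjusted p of 1.21e-06.

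**Figure D2:**
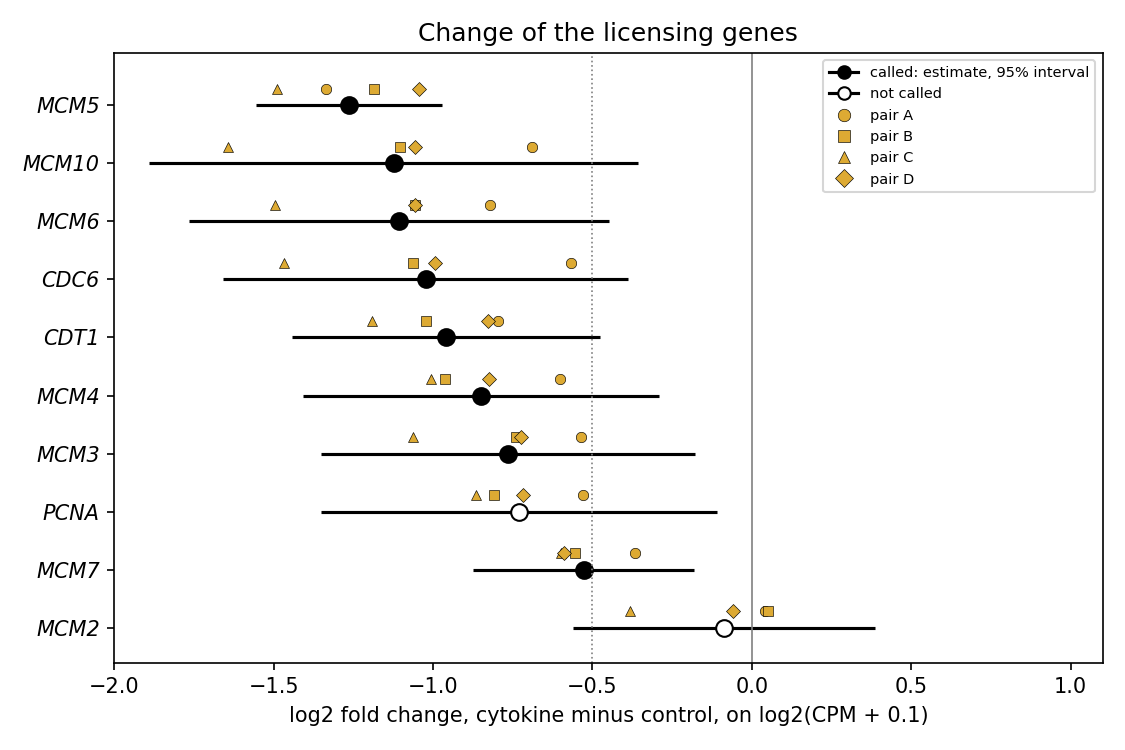
Log2 fold change of each licensing gene, cytokine minus control, on log2(CPM + 0.1), with its 95% interval (filled circles, called; open circles, not called) and the change within each pair A to D (small symbols). The dotted line marks the threshold of 0.5, and only MCM2 has pairs on both sides of 0.

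The subunits of the ring did not fall to the same degree, and its transcript make-up differed between conditions. MCM2 made up 18.5%, 16.3%, 18.3% and 17.0% of the summed TPM of MCM2 to MCM7 in control libraries A to D and 26.3%, 25.9%, 26.0% and 25.2% in cytokine libraries A to D. The means were 17.5% ± 1.07 and 25.8% ± 0.471 (SD, n = 4 each), and the groups were far apart although CPM of MCM2 overlapped. MCM5 went the other way, from 9.49% ± 2.02 to 6.11% ± 0.722, and MCM6 from 14.5% ± 2.23 to 10.5% ± 0.920, and neither share overlapped between conditions. The shares of MCM3 (22.5% and 20.7%), MCM4 (10.5% and 9.15%) and MCM7 (25.6% and 27.7%) overlapped. The size of each share depends on the exon lengths used, which were the same in both conditions.

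Such ratios within a library do not depend on how libraries are scaled to each other, although their level depends on the exon lengths used. The TPM ratio of MCM2 to MCM5 was 1.53 to 2.29 in control libraries and 3.81 to 4.94 in cytokine libraries. That of MCM2 to MCM6 was 1.06 to 1.52 and 2.25 to 2.78, and that of MCM2 to MCM4 was 1.49 to 1.88 and 2.54 to 3.14. MCM2 to MCM3 stood at 0.710 to 0.915 and 1.13 to 1.37, and MCM2 to MCM7 at 0.578 to 0.838 and 0.881 to 0.986. MCM2 was thus higher relative to each of the other 5 subunits with no overlap of libraries, but a ratio to a falling gene rises for many genes. The ratio to MCM5 was higher without overlap for 77.4% of the 14682 other genes that averaged 1 CPM or more, the ratio to MCM6 for 44.4%, to MCM4 for 37.3%, to MCM7 for 33.7% and to MCM3 for 30.9%.

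**Figure D3:**
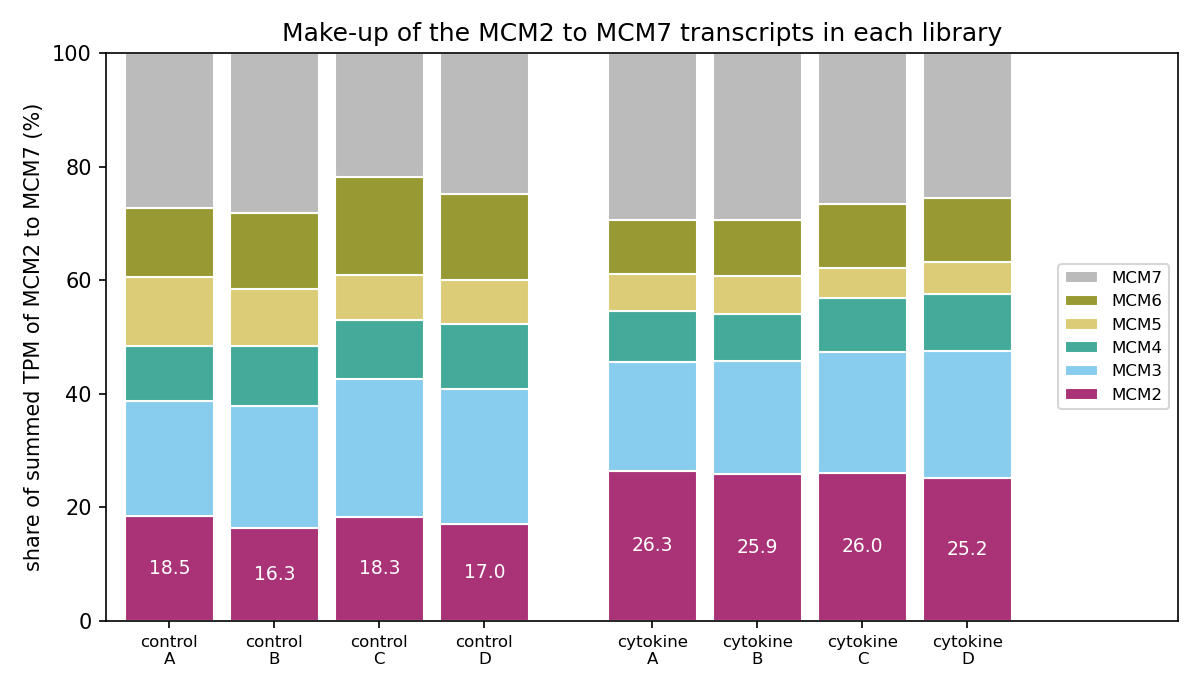
Stacked share of each ring subunit in the summed TPM of MCM2 to MCM7 (percent) in the 4 control and the 4 cytokine libraries, with the MCM2 share printed in its bar. The MCM2 share is 16.3% to 18.5% in control libraries and 25.2% to 26.3% in cytokine libraries.

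The licensing genes also differed between libraries of the same condition. In all 10 genes control libraries C and D were both above control libraries A and B, by 0.23 (MCM5) to 1.06 (MCM6) on the log2 scale with a median of 0.86, where 44.3% of all genes showed that order and the median over all genes was 0.18. With cytokines 7 of the 10 showed it, where 36% of all genes did. This spread within conditions enters the standard errors above. In 9 of the 10 genes each cytokine library was below the control library of its pair (43.6% of all genes), and MCM2 was the exception. With the pair as a replicate block limma called 9 of the 10 lower, where it called 23.8% of all genes lower and 11.6% higher. Within pairs A and B the log2 fold changes of the 10 genes ran from -1.26 to 0.05, and within C and D from -1.35 to -0.22. The estimate was lower in C and D for all 10 genes, but no gene passed a test of that difference (lowest unadjusted p = 0.130, adjusted p of at least 0.999, limma interaction), a test that 0.0303% of all genes passed.

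Markers of dividing cells moved with the licensing genes. MKI67, TOP2A, CCNB1, CDK1, BIRC5 and AURKB are transcribed mainly from S phase to mitosis. They were called lower in 6 of 6 cases (17.5% of all genes) with a median log2 fold change of -1.35. The markers were called lower in 3 of 6 cases with TMM scaling (11.7%) and in 2 of 6 without both libraries D (12.2%). Their part in the licensing result was not tested. Their order among libraries was not that of the licensing genes. In control libraries A to D the CPM of the 10 licensing genes summed to 340, 356, 583 and 563, whereas the 6 markers summed to 118, 136, 84.7 and 229.7. Control library C thus had the highest sum of licensing genes and the lowest sum of dividing-cell markers. CDK1 was the exception among the 6 markers. It stood at 9.13, 10.5, 11.3 and 25.6 CPM in control libraries A to D, so control C lay above A and B. With cytokines the sums were 236, 219.9, 309 and 353 for the licensing genes and 62.0, 55.7, 27.7 and 73.9 for the markers, and library C was again lowest for the markers only.

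The identity of the cells was checked with markers chosen for each type. The 10 beta-cell markers, among them INS and PDX1, were all listed and summed to 23784 to 36260 CPM in control and 29195 to 52704 CPM in cytokine libraries, with 4 called lower (PDX1, MAFA, NKX2-2 and SLC30A8) and none higher by limma (2 were higher at an unadjusted p under 0.05). Over all genes limma called 17.5% lower and 9.52% higher. With TMM scaling 3 of the markers were lower, without NKX2-2 (adjusted p = 0.204), and 1 higher (NKX6-1, adjusted p = 0.0410, limma). There 11.7% and 13.0% of all genes were called. With DESeq2 3 of the markers were lower and 3 higher (NKX6-1, IAPP and CHGA), where 13.0% and 14.3% of all genes were called. IAPP (4102 and 7787 CPM, adjusted p = 0.0765) was higher with cytokines in each of the 4 pairs and was called with the replicate block (adjusted p = 3.52e-09), but not with TMM scaling (adjusted p = 0.0505, limma). NKX6-1 (169 and 222 CPM) was higher in each pair too, with an adjusted p of 0.0920 by limma without TMM scaling. Of the hormones of other islet cells, GCG was at 19.8, 27.2, 222 and 104 CPM in control libraries A to D and at 6.47, 9.80, 40.7 and 81.1 CPM with cytokines. GCG was thus lower in each pair and higher in C and D than in A and B, and it was called with the replicate block (adjusted p = 3.89e-05) and not without it (adjusted p = 0.237). SST had the opposite order between series, at 1761, 2143, 615 and 355 CPM in control libraries A to D, and was not called (adjusted p = 0.926). PPY, at 11 to 52 reads a library, was higher with cytokines in each pair (log2 fold change 0.69). It was called higher with the replicate block (adjusted p = 0.0471, limma) and not called without it (adjusted p = 0.214). With the block 1 of the 5 markers of other islet cells was thus called lower and 1 higher, where 23.8% and 11.6% of all genes were. Of 7 exocrine and duct markers only CPA1 and KRT19 were listed, summing to 88.2 to 167 and 84.6 to 166 CPM, and CPA1 was called lower. Of 6 fibroblast markers COL1A1 and PDGFRB were listed, at a sum of 3.56 to 5.30 and 4.29 to 6.41 CPM, and none of the 6 endothelial and immune markers was in the table. The part of these markers in the licensing result was not tested.

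The other genes of DNA replication gave the setting for the 10. Of 92 such genes in 7 lists 90 were tested (RNASEH2A and CCND2 were not analysed here), and 37 were called lower and 4 higher (48 and 7 with the replicate block), with a median log2 fold change of -0.54. That was 41.1% lower and 4.44% higher, where 17.5% and 9.52% of all genes were called. With the block it was 53.3% and 7.78%, where 23.8% and 11.6% of all genes were called. The 17.5% and 9.52% also stand beside the count of each list below. Closest to licensing itself were the origin recognition complex, geminin and further MCM proteins. Of these 10 genes only ORC1, the regulated large subunit of the origin recognition complex, was called without the replicate block, and it was lower (4.19 ± 0.832 to 2.27 ± 0.791 CPM; log2 fold change -0.88 ± 0.25 SE, adjusted p = 0.0213, limma). GMNN, which encodes the CDT1 inhibitor geminin, was at 10.1 ± 4.04 and 9.74 ± 3.23 CPM (adjusted p = 0.953), ORC6 had a log2 fold change of -0.38 (adjusted p = 0.339) and MCMBP, an MCM-binding protein, one of -0.34 (adjusted p = 0.0653). With the block MCM8, a helicase of DNA repair, was called lower too (-0.55, adjusted p = 0.000843). The list's median was -0.30, against -0.90 in the licensing genes. Without the block 10% of the list was called lower, under the 17.5% of all genes.

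Origin firing joins the loaded helicase to its cofactors CDC45 and GINS. Of 17 genes 7 were called lower and 1 higher. CDC45 went from 5.08 ± 1.42 to 2.06 ± 0.978 CPM (log2 fold change -1.32, adjusted p = 0.00770). Among the subunits of GINS, GINS1 (-1.41), GINS2 (-1.02) and GINS4 (-1.37) fell, whereas GINS3 rose. GINS3, named after its value was seen as the only gene of this list called higher, was at 5.00, 5.84, 6.13 and 7.35 CPM in control libraries A to D and at 11.5, 13.5, 15.0 and 16.9 CPM with cytokines, without overlap, as were 10.8% of all genes (log2 fold change 1.21 ± 0.17 SE, adjusted p = 0.000431, limma). The kinase CDC7 (-0.44, adjusted p = 0.0795), its activator DBF4 (0.08, adjusted p = 0.766) and the checkpoint adaptor CLSPN (-0.87, adjusted p = 0.139) were not called, but CLSPN was called lower with the replicate block (adjusted p = 0.00056).

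Among DNA polymerase and primase genes 6 of 12 were called lower, led by POLE2 (3.32 ± 0.469 to 1.17 ± 0.453 CPM, log2 fold change -1.48) and PRIM1 (-1.15). Of 16 genes for the clamp loader and the lagging strand 5 were called lower. UHRF1, which links replication to DNA methylation (-1.66, adjusted p = 0.00269), and FEN1, the flap nuclease that works with PCNA (24.8 ± 7.84 to 12.6 ± 3.52 CPM, -0.96, adjusted p = 0.0151), were in this list, while PCLAF, a PCNA-binding factor at 5 to 80 reads a library, was not called (-1.20, adjusted p = 0.115) without the replicate block and was with it (adjusted p = 0.00536). Of 5 chromatin assembly genes 3 were called lower, among them CHAF1A (-1.04) and ASF1B (-1.33). NASP, of the same list, and RFC1, of the clamp loader, were higher with cytokines in each pair. Neither was called in the limma test without block or TMM scaling (0.53 and 0.54, adjusted p = 0.0976 and 0.0883). Both were called higher with the replicate block (adjusted p = 0.000414 and 0.000156) and with TMM scaling (adjusted p = 0.0207 and 0.0170, limma).

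Nucleotide supply moved in opposite directions. Of 9 genes 5 were called lower, among them RRM2, the regulated subunit of ribonucleotide reductase (37.2 ± 21.4 to 11.5 ± 7.01 CPM, log2 fold change -1.71, adjusted p = 0.00910), and TYMS, thymidylate synthase (-1.01, adjusted p = 0.0288). SAMHD1, which degrades deoxynucleotides and is known as interferon-responsive, rose in every library, from 35.7 ± 3.22 to 214 ± 10.1 CPM (2.58 ± 0.11 SE, adjusted p = 3.36e-08, limma).

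Of 21 S-phase regulators 10 were called lower and 2 higher. E2F1, an activator of the family whose sites were searched above, went from 49.7 ± 11.6 to 16.2 ± 4.44 CPM (log2 fold change -1.62, adjusted p = 0.000219). CCNE2 (-1.30), CHEK1 (-0.97) and DTL (-1.24), the substrate receptor of the ligase that degrades CDT1, were also lower. The 2 genes called higher were CDKN1A, which encodes the cyclin-kinase inhibitor p21 that binds PCNA (109 ± 22.1 to 230 ± 81.9 CPM, 1.04, adjusted p = 0.00703), and CCND1, cyclin D1, which had 0 to 2 reads in each control library and 49 to 112 in each cytokine library. Among these libraries CCND1 passed the filter for listing (0.5 CPM in at least 4 samples) only through the cytokine group. Its call, and its place in the counts of genes called higher, thus follow in part from that filter. CDKN1B, which encodes p27, was not called (0.09, adjusted p = 0.709). CDK6, at 3 to 56 reads a library, was not called either (1.13, adjusted p = 0.0906, limma). With the replicate block CDK6 was called higher (adjusted p = 0.0110).

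**Figure D4:**
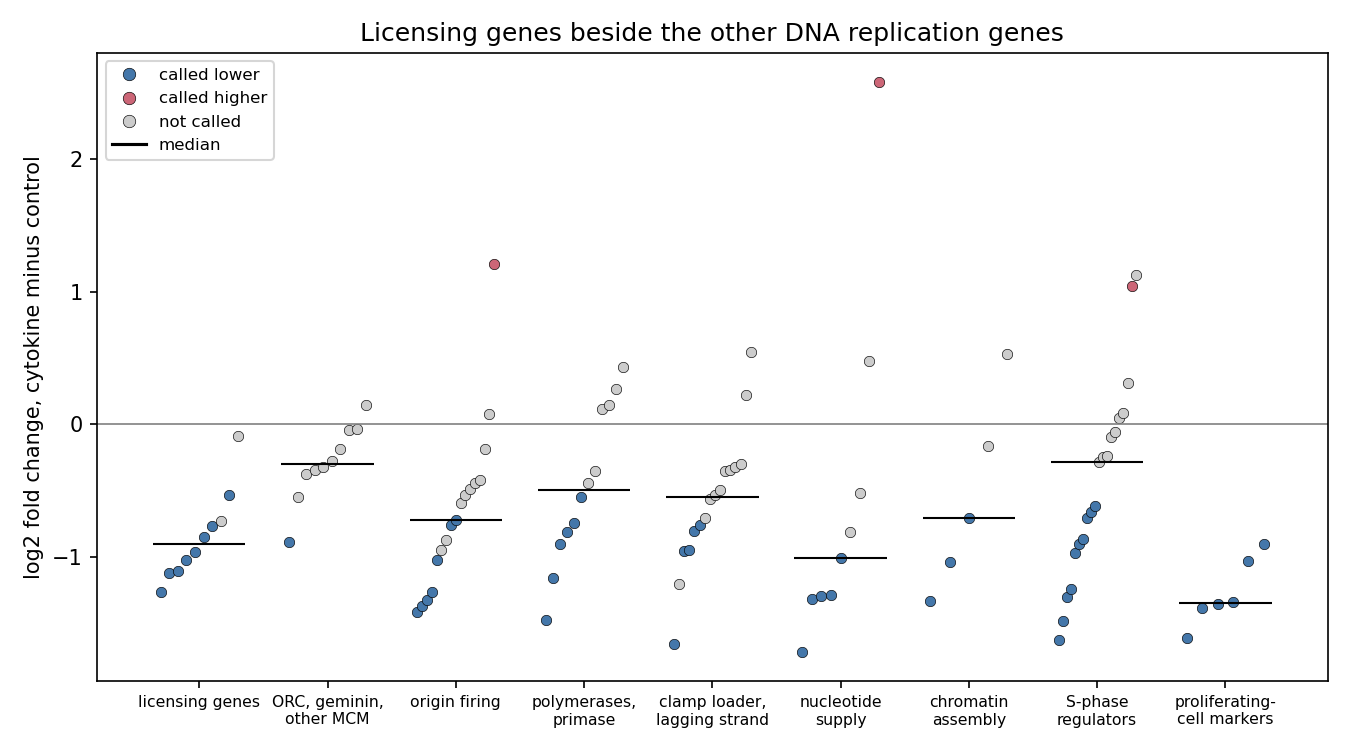
Log2 fold change (cytokine minus control) of the 10 licensing genes, of the other replication genes by list and of the 6 dividing-cell markers, each point a gene (blue, called lower; red, called higher; grey, not called) and each line the median of its list. CCND1, whose control libraries hold at most 2 reads, is counted in its list's median and not drawn, and 8 of the 10 licensing genes are blue.

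The profile of the licensing genes over the 8 libraries was then compared with that of the other genes that averaged 1 CPM or more. The measure was the root mean square distance, over libraries, between a gene's log2(CPM + 0.1) centred on its mean and the average centred profile of the 10 genes. Among 14673 genes the nearest were FEN1 at 0.0805, HNRNPA1 at 0.0879, NAP1L1 at 0.104, RFC4 at 0.105 and WAC-AS1 at 0.109. FEN1 and RFC4, a subunit of the clamp loader, are replication genes, NAP1L1 is a histone chaperone, and HNRNPA1 is an RNA-binding protein whose many processed copies in the genome can share its reads. Of the 10 genes themselves MCM4 lay nearest to their average profile at 0.0745 and MCM2 farthest at 0.393, followed by MCM5 at 0.315.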

How the data were processed

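Libraries of mRNA from 4 control and 4 cytokine samples were made with a strand-specific kit and sequenced as paired reads. Per the methods and the submitters' processing notes, the authors aligned reads to GRCh38 with TopHat2 2.1.1, counted them on Ensembl release 107 genes with HTSeq 0.9.1, divided by the library total and deposited CPM for genes above 0.5 CPM in at least 4 samples. Another 4 value columns of the table match no sample described here and were not used. Every deposited CPM was a whole multiple of 1 read (tolerance 0.001), so reads were recovered and 3 reads is the limit that a count of 0 allows, for counting error only.

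The study tested counts with edgeR. As CPM is the deposited unit, limma 3.58.1 (R 4.3.3) was fitted to log2(CPM + 0.1) of all 16525 genes, with an intensity trend, no block and Benjamini-Hochberg adjustment, and edgeR 4.0.16 and DESeq2 1.42.0 on recovered reads served as alternatives, beside other scalings, pseudocounts and filters and each library left out in turn. Fits without both libraries D, with a term that separates A and B from the other pairs, and with the replicate block under TMM scaling were added after seeing the data. The columns carry no replicate number, so groups follow the condition in each column name, and the pairs A to D come from its first part. Deviations from group means had correlations over genes of 0.57 in pair A, 0.59 in B, 0.80 in C and 0.74 in D, although control B matched cytokine library A as well (0.59), so the check does not separate A from B. The lowest chi-square between libraries of a condition was 5.88 per gene, so none is a copy.

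Named genes were the 10 licensing genes, a set list of replication genes, the 2 called genes of largest change in each list, MKI67, TOP2A and the 5 genes of nearest profile. The genes and lists were chosen with earlier results of these data known. TPM used GENCODE 29 exon lengths (all bases in any annotated exon of a gene), found for 97.8% of genes. The marker list of other islet cells is reported gene by gene only for GCG, SST and PPY. Scripts were tested on simulated data. Tables and figures used Python 3.11.15, pandas 2.3.3, numpy 2.4.6, scipy 1.17.1 and matplotlib 3.10.9.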

Additional observations from a re-analysis of the deposited data

Results flagged for a closer look

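Among the 45 genes named by the rule or after their value was seen, 90 groups of 4 libraries were examined with Dixon's criterion, and 7 had a highest library far from the other 3. Chance flags about 1 in 20 groups. All 7 were a library D. MCM10 stood at 3.62 CPM in cytokine library D, where the others were at 1.58 to 1.72, and ORC1 at 3.46 and CCNE2 at 6.25 CPM in the same library. ORC6 stood at 9.76 CPM, RRM2 at 69.3 CPM and ASF1B at 23.5 CPM in control library D, and ASF1B at 10.03 CPM in cytokine library D. The part of the larger share of reads outside the listed genes in library D was not tested. Without both libraries D, limma called 4 of the 10 licensing genes and 12.2% of all genes lower.

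The change of MCM2 was below 0 in pairs C and D and above 0 in pairs A and B, a difference between the series of -0.27 on the log2 scale. The interaction test did not pass (unadjusted p = 0.151, adjusted p = 0.999, limma).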

How the results depend on the processing

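None of the 10 licensing genes was called higher under any of the 27 alternatives. The genes were compared one by one in 25 of these, without the test against a fold of 0.5 and the FDR alone. MCM5 and CDT1 were called lower in all 25, and MCM6 in all but the fit without both libraries D. The count called lower was 8, where 17.5% of all genes were called lower. It was 6 to 9 under the other tests, scalings, pseudocounts and filters. Exceptions were 3 relative to GAPDH, 1 (MCM5) when limma tested against a fold of 0.5 directly and 4 without both libraries D (12.2% of all genes). The direct test against a fold of 0.5 called 1378 of all genes in either direction. Leaving out a library gave 3 to 9. The count was 3 without control C (15.6% of all genes called lower), control D (14.5%) or cytokine B (15.2%). It was 4 without cytokine A (15%), 6 without cytokine C, 8 without control B and 9 without control A or cytokine D. Over all genes these 8 fits called 3899 to 4339, in either direction. MCM3 and MCM10 lost their call in 5 of these 8 fits, MCM4 and MCM7 in 4 and CDC6 in 3. The cause was not tested. With the pair as a replicate block the count was 9 (PCNA added, 23.8% of all genes called lower), and 8 with edgeR or limma under TMM scaling. For the single fits given here without a share, calls lower over all genes were not tallied. Their counts thus have no such background here.

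Under TMM scaling the median over all genes moved from -0.17 to -0.02 (log2). MCM2 turned positive with TMM (0.065 with limma, 0.050 with edgeR), DESeq2 (0.061), median-of-ratios scaling (0.075), relative to GAPDH (0.12) and under the block with TMM (0.064 with edgeR, 0.065 with limma), and ranged from -0.23 to 0.074 with a library left out. GMNN likewise turned to 0.12 with TMM or DESeq2, 0.11 with edgeR or quantile normalization, 0.13 with median-of-ratios scaling, 0.18 relative to GAPDH and 0.12 under the block with TMM, and ranged from -0.22 to 0.17 with a library left out. With a library left out DBF4 ranged from -0.0066 to 0.16 and CDKN1B from -0.0057 to 0.20.

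Among the other replication genes the 37 called lower (41.1%, beside 17.5% of all genes) became 19 relative to GAPDH and 7 against a fold of 0.5. Against that fold, calls over all genes fell to 1378 in either direction. Calls lower over all genes were not tallied for these 2 fits. The 4 called higher (4.44%, beside 9.52% of all genes) became 7 with DESeq2 (7.78%, beside 14.3% of all genes). With the block they were also 7 (7.78%, beside 11.6% of all genes). Each of these shares lay below that of all genes. The count was 7 with a series term and 8 under the block with TMM, where calls higher over all genes were not tallied.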
